A study of Mus musculus with 6 samples.

Results

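The 9 genes described here are receptors of the TNF receptor superfamily that T cells use for co-stimulation (Tnfrsf4, Tnfrsf9, Tnfrsf18, Tnfrsf1b, Tnfrsf25 and Cd27) and TRAF adaptors that bind their tails (Traf1, Traf2 and Traf3). They were taken by symbol from the count table, and all 9 were among its 48397 genes. Their RNA was measured in stage 0 iNKT cells, the earliest invariant natural killer T cells after positive selection, sorted from the thymus as PBS57-CD1d tetramer+, CD24+, CD69+, CD44-, CD4 low or negative and CD8- cells. There were 3 libraries from wild-type BALB/c mice and 3 from SKG mice, which carry a hypomorphic Zap70 allele on the BALB/c background in all their cells. All mice were 8 to 10 weeks old. Each library came from about 1000 cells of the pooled thymi of 3 mice, so that a replicate is a pool and not an animal. The comparison asks which of these genes differ when the T cell receptor (TCR) signals less strongly.

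Receptors of this family have no enzymatic activity of their own. When a trimeric ligand of the TNF superfamily brings them together, their tails recruit TRAF adaptors, which with the ubiquitin ligases they carry start the canonical NF-κB arm and, by releasing the kinase NIK, the alternative arm. In T cells TCR signals raise the RNA of several of these receptors and of Traf1, while Cd27 is already present on thymocytes.

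Reads on genes numbered from 37176544 to 43115544 per library, and genes with at least 10 reads from 10835 to 14791. A gene with at least 100 reads in one library had none at all in another of the same genotype in 10.7% of cases for BALB/c and in 10.1% for SKG, so a level near 0 in a single library is common in these data. Of the genes of the sort, Cd69 had 6120 to 16010 reads in a library and Cd24a 271 to 3443, and Egr2, an early TCR-induced factor, had 17840 to 63786. RNA of genes whose protein the sort gated out was also read, with Cd8a at 922 to 4985 reads, above Cd24a in all BALB/c libraries and in SKG replicate 1, Cd8b1 at 592 to 4958 and Cd44 at 4 to 536. Levels are given as CPM, the reads of a gene scaled to the size of its library after TMM normalisation. Differences are the SKG over BALB/c log2 fold changes of edgeR's quasi-likelihood test with their standard errors (SE). Adjusted p-values from edgeR are Benjamini-Hochberg values over all 12312 genes tested. Those from DESeq2 are over the genes it gave one, 13862 with shrunken fold changes and 14342 without shrinkage. A gene was called when its adjusted p was under 0.1 and its change 1.5-fold or more. Fewer cells with a given RNA and less of it in each cell cannot be told apart in these bulk libraries.

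Zap70 RNA, the transcript of the mutated kinase, averaged 448 ± 65.4 CPM over the BALB/c and 356 ± 45.9 CPM over the SKG libraries (SD, n = 3 each), and the libraries overlapped. The SKG allele changes the protein and not the presence of the transcript, so this level does not check the genotype labels.

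Of the 9 genes, Tnfrsf9 and Tnfrsf4 were the pair with the clearest difference, and both had less RNA in SKG. Tnfrsf9 was 2.63 times lower and Tnfrsf4 was nearly without reads. Traf1 was also lower in each SKG library than in any BALB/c library, Traf2 was slightly higher, and the libraries of Tnfrsf18, Tnfrsf1b, Cd27 and Traf3 overlapped. Tnfrsf25 had 0 reads throughout. EdgeR's quasi-likelihood test called 0 of the 8 members it could test, as it called 0% of all genes (671 genes had an unadjusted p under 0.05). At an unadjusted p under 0.05 there were 2 members, Tnfrsf4 and Tnfrsf9, both lower in SKG, where 2.38% of all genes lay in that direction. Tnfrsf4 could enter the test only in that direction, since it passed the filter on low counts through its BALB/c libraries alone, so the count is not read as support for a shift of the members. DESeq2 called the same 2 genes at the same thresholds, both with shrunken fold changes, where it called 0.815% of its genes as lower in SKG, and without shrinkage, where it called 1.35%. The limma-voom test called 0. In CPM, the BALB/c and SKG ranges were apart for 3 members that were lower in SKG, against 7.12% of all genes, and for 1 that was higher, against 6.77%. Tnfrsf4 is 1 of the 3 lower members and entered through its BALB/c libraries alone, so this count is not read as support either. With 3 libraries against 3, an exact permutation test of a single gene cannot give a two-sided p under 0.1. The median log2 fold change of the 8 tested members was -0.04, and that of all genes tested was -0.02.

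**Figure D1:**
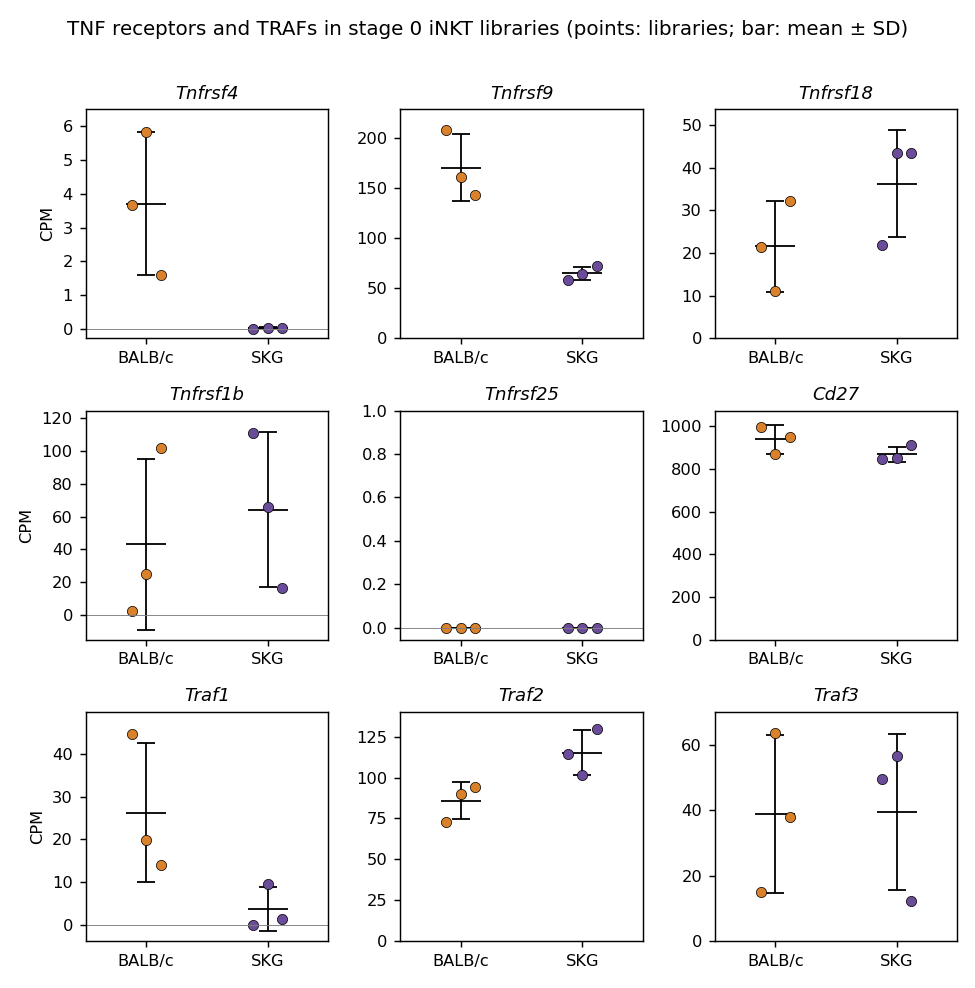
Level of each of the 9 genes in CPM (vertical axes, one scale per gene) in the 3 BALB/c libraries (orange) and the 3 SKG libraries (purple). Points are libraries and bars are the mean ± SD. Tnfrsf4, Tnfrsf9 and Traf1 lie lower in all SKG libraries, Traf2 lies higher, and Tnfrsf25 is at 0 in all 6.

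Tnfrsf9 encodes 4-1BB, a co-stimulatory receptor that activated T cells place on their surface and that signals through TRAF1 and TRAF2. Its reads numbered 8595, 5971 and 6455 in BALB/c replicates 1 to 3 and 2364, 2490 and 2612 in SKG replicates 1 to 3. The lowest BALB/c library thus held more than 2 times the reads of any SKG library, and the SKG libraries lay close together. The mean level was 171 ± 33.8 CPM for BALB/c against 65.0 ± 6.83 CPM for SKG (SD, n = 3 each), a coefficient of variation of 19.8% and 10.5%. The log2 fold change was -1.39 (SE 0.22, adjusted p = 0.617 from edgeR, and 3.2e-05 from DESeq2 with shrunken fold changes). It stayed between -1.50 and -1.22 when single libraries were left out, with the smallest difference without BALB/c replicate 1.

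Tnfrsf4 encodes OX40, which sustains the survival and cytokine production of activated T cells. BALB/c replicates 1 to 3 held 151, 216 and 73 of its reads. In the SKG libraries 1, 2 and 2 reads were found, all under the 3 reads that a count of 0 still allows by counting error alone. Over the groups these are 440 and 5 reads, a ratio of 82.2 at equal depth, with an exact 95% interval from 34.9 to 254 that covers counting error only, since PCR copies of one molecule cannot be told from separate molecules here. Even in BALB/c the level was low, at a mean of 3.70 CPM with a coefficient of variation of 56.9% (n = 3). The fitted log2 fold change of -6.30 (SE 1.18, adjusted p = 0.617 from edgeR) rests on SKG libraries below that limit and is not a bound, and the shrunken estimate of DESeq2 was -4.33 (adjusted p = 2.31e-08). Leaving out any 1 library gave -6.65 to -5.82.

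Tnfrsf18 encodes GITR, a receptor found on regulatory and activated T cells. The BALB/c libraries held 882, 409 and 1455 reads and the SKG libraries 877, 1686 and 1574, so that a SKG library lay within the BALB/c range. The log2 fold change was 0.75 (SE 0.57, adjusted p = 0.991 from edgeR). Tnfrsf18 and Tnfrsf4 are neighbours on chromosome 4, with 9551 bases between them, yet their fitted differences have opposite signs.

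Cd27 encodes the receptor for CD70 and was by far the most abundant member. Reads numbered 41214, 32213 and 42845 for the BALB/c libraries and 34063, 33194 and 32930 for the SKG libraries. It was also the least variable, at 939 ± 66.0 and 870 ± 35.4 CPM (SD, n = 3 each). The log2 fold change was -0.11 (SE 0.12, adjusted p = 0.991 from edgeR) and lay between -0.17 and -0.06 with any 1 library left out.

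Tnfrsf1b encodes TNFR2, the TNF receptor of lymphocytes that recruits TRAF2. Its reads varied more among the BALB/c libraries than those of any other member, at 95, 929 and 4604 in BALB/c and 4469, 2551 and 591 in SKG. The coefficients of variation of 121% and 73.6% leave its log2 fold change of 0.58 smaller than its error (SE 1.23). A single library moved it from -0.08 without SKG replicate 1 to 2.25 without BALB/c replicate 3.

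Tnfrsf25 encodes DR3, the receptor for the cytokine TL1A. No library had a read on it. By counting error alone, a count of 0 allows up to 3 reads, or between 0.0664 and 0.0830 CPM depending on the library. That limit does not cover the loss of a gene from single libraries, which is common in these data. Its RNA was thus not detected at this depth in either genotype.

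Traf1 encodes the TRAF that lacks a RING domain and joins TRAF2 on receptors such as 4-1BB, and its gene is itself switched on by NF-κB. BALB/c replicates gave 1843, 736 and 637 reads, and SKG replicates gave 0, 370 and 53. No SKG library reached the lowest BALB/c library, but the SKG libraries spread from 0 to 9.52 CPM. The means were 26.2 ± 16.2 and 3.66 ± 5.12 CPM (SD, n = 3 each). The log2 fold change was -2.84 (SE 1.85, adjusted p = 0.985 from edgeR and 0.794 from DESeq2 with shrunken fold changes). Without SKG replicate 2 it was -5.15 and without BALB/c replicate 1 it was -2.19, so its size rested on single libraries. Since the libraries of the genotypes do not overlap, leaving 1 out could hardly change its sign.

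Traf2 encodes the adaptor that brings the ubiquitin ligases cIAP1 and cIAP2 to these receptors. The BALB/c libraries held 3005, 3341 and 4265 of its reads, and 4607, 3954 and 4679 came from SKG. The read numbers overlap, whereas the CPM values, at 72.9 to 94.4 in BALB/c and 102 to 129 in SKG, do not. Its log2 fold change was 0.42 (SE 0.21, adjusted p = 0.952 from edgeR), below the 1.5-fold threshold.

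Traf3 encodes the adaptor that, with TRAF2, keeps NIK low in resting cells. Reads numbered 620, 2357 and 1712 in BALB/c and 1991, 2205 and 437 in SKG. The genotypes covered the same range, at 38.8 ± 24.3 and 39.4 ± 23.9 CPM (SD, n = 3 each). The log2 fold change of 0.02 (SE 0.74) changed sign when BALB/c replicate 1 (-0.35), SKG replicate 1 (-0.17) or SKG replicate 2 (-0.32) was left out.

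**Figure D2:**
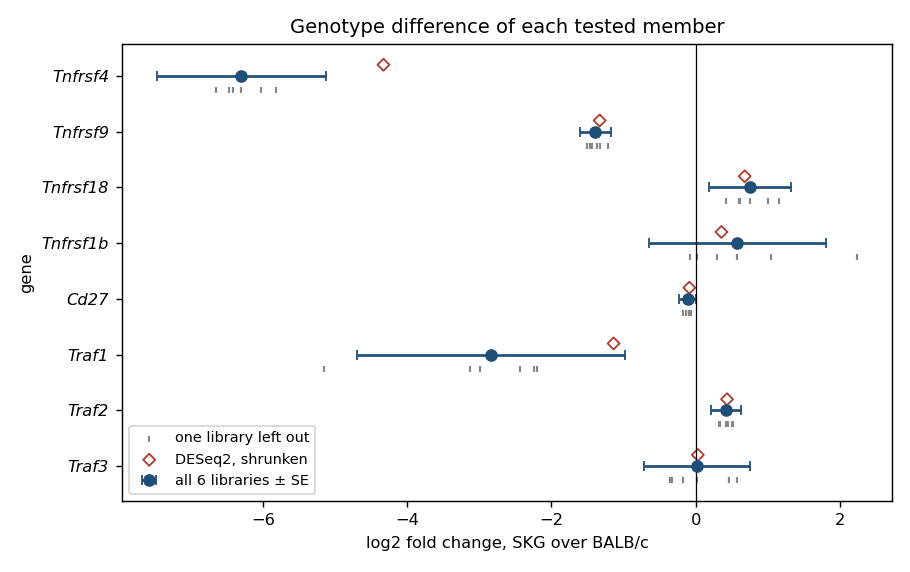
Log2 fold change of each tested member, SKG over BALB/c (horizontal axis). Blue points with bars are edgeR's estimates from all 6 libraries ± SE, grey ticks the estimates with 1 library left out and open red diamonds the DESeq2 shrunken estimates. Tnfrsf4 and Tnfrsf9 stay below 0 throughout, as their libraries do not overlap between the genotypes. The ticks of Tnfrsf1b and Traf3 fall on both sides of 0.

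To compare genes with each other, levels were also divided by the length of the annotated exons. In BALB/c, Cd27 came first at 403 ± 28.3 CPM per kilobase (SD, n = 3), followed by Tnfrsf9 at 62.7 ± 12.4 (SD, n = 3) and Traf2 at 16.8 ± 2.24 (SD, n = 3), and the libraries of these 3 genes did not overlap with each other. Tnfrsf18 (14.1), Tnfrsf1b (11.3) and Traf3 (5.28) came next and overlapped with their neighbours in this order, as did Traf1 (2.97) and Tnfrsf4 (2.71). In SKG, Cd27 again stood first at 374 ± 15.2 CPM per kilobase (SD, n = 3). Tnfrsf9 at 23.9 ± 2.51, Tnfrsf18 at 23.8 ± 8.22 and Traf2 at 22.6 ± 2.71 (each SD, n = 3) had overlapping libraries there, so that the second place of Tnfrsf9 seen in BALB/c was no longer separate in SKG. Tnfrsf4 stood last of the tested genes at 0.0321 CPM per kilobase.

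**Figure D3:**
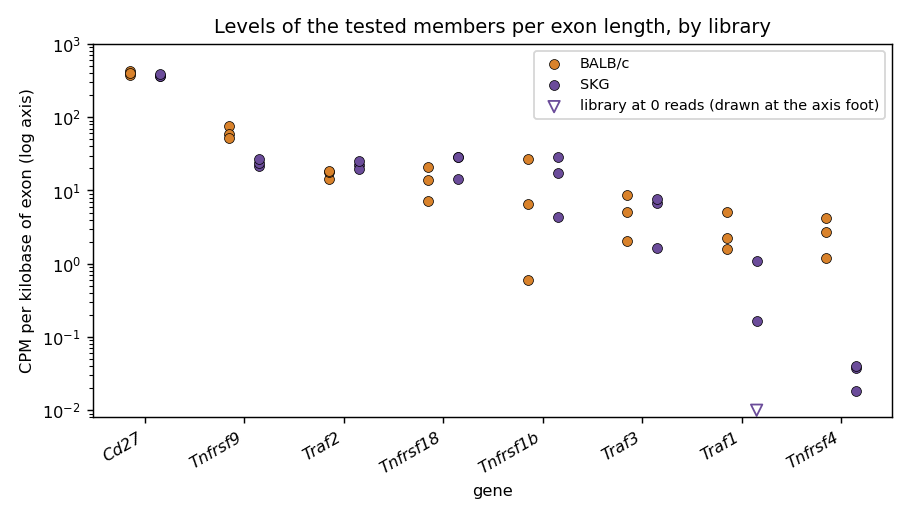
Level of the 8 tested members per kilobase of exon in each library (vertical axis, CPM per kilobase on a log scale), ordered by their BALB/c mean, with BALB/c libraries in orange and SKG libraries in purple. The open triangle at the foot marks the SKG library with 0 reads on Traf1. Cd27 lies above all others, and Tnfrsf9 drops to the level of Traf2 and Tnfrsf18 in SKG.

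On GRCm38, 5 of the 9 genes lie on chromosome 4 (GENCODE M21 positions). They are Tnfrsf1b (145213463 to 145246870, minus strand), Tnfrsf9 (150914562 to 150946102, plus), Tnfrsf25 (152115934 to 152120119, plus), Tnfrsf4 (156013843 to 156016612, plus) and Tnfrsf18 (156026164 to 156028895, plus). The others are Cd27 on chromosome 6 (125232622 to 125237010, minus), Traf1 (34941750 to 34961772, minus) and Traf2 (25517982 to 25546940, minus) on chromosome 2, and Traf3 on chromosome 12 (111166370 to 111267153, plus). All are protein-coding. Exons of Tnfrsf18 share 27.2% of their length with the transcript Gm16008, and since reads were counted without regard to strand, reads in that stretch cannot be given to one of them. Gm16008 had at most 79 reads in a library. Cd27 shares 5.54% of its exon length with Mir8113, and the other 7 members share none. The nearest tested genes on either side were read as well. Park7, 125 bases before Tnfrsf9, had a log2 fold change of -0.09 (SE 0.23), and Per3, on its other side, had -0.71 (SE 1.56). Sdf4, 233 bases before Tnfrsf4, had 0.18 (SE 0.18), and Gm16008, on the other side, had -2.21 (SE 2.04) from BALB/c reads of 79, 62 and 26 and SKG reads of 36, 0 and 0. Beside Traf1, Phf19 had -0.66 (SE 1.76) and Cntrl 0.46 (SE 0.21), and beside Traf2, Fbxw5 had 0.04 (SE 0.29) and Edf1 -0.56 (SE 0.20).

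The windows from 250 bases before to 50 bases after each RefSeq transcription start on GRCm38.p6 were searched on both strands for motifs of factors that act downstream of the TCR or of TRAFs. All 9 members had a window, 11 in all, as Tnfrsf9 and Tnfrsf25 each have 2 RefSeq starts. Both starts of Tnfrsf9 lie inside the gene as placed by GENCODE, whose own start at 150914562 has no window. The motifs were the κB site by name, bound by NF-κB and present in 8.46% of all 32851 windows, the AP-1 site TGANTCA (7.81%), the NFAT core GGAAA (61.3%) and the EGR site GCGNGGGCG (5.55%). Shown are the windows of the 3 members with non-overlapping lower libraries in SKG and, beside them, that of Traf3, whose libraries overlapped. Capitals mark bases of any of these motifs, and positions are counted from the start, with the base before it as -1. For Tnfrsf9 the second start is shown.
Tnfrsf9, chr4:150927749-150928048, plus strand: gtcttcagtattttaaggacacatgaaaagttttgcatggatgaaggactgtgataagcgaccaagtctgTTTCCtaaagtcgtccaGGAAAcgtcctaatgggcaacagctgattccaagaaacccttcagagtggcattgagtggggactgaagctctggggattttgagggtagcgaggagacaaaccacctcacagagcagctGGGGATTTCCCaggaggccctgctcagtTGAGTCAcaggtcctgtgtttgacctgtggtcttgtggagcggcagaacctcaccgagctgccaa
Tnfrsf4, chr4:156013445-156013744, plus strand: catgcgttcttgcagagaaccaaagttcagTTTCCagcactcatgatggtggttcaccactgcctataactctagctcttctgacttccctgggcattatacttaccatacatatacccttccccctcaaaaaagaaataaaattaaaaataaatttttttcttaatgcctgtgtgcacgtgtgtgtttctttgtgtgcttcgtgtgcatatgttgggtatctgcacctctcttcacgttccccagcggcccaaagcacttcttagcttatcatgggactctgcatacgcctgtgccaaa
Traf1, chr2:34961723-34962022, minus strand: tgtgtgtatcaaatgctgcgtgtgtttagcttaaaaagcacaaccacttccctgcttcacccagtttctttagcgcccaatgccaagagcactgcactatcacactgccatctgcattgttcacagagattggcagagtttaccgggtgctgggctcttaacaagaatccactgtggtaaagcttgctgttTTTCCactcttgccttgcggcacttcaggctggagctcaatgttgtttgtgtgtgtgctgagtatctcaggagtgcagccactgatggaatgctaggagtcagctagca
Traf3, chr12:111166120-111166419, plus strand: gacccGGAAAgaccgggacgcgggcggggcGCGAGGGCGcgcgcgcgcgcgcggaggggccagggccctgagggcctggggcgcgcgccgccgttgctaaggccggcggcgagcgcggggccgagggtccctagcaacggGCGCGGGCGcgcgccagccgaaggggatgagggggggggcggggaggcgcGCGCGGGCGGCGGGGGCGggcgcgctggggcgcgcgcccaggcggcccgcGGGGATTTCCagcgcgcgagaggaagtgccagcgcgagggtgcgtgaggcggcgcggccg

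The window of Tnfrsf9 holds a κB match, GGGGATTTCC, with its first base at -43 (a second match overlaps it from -42), and the AP-1 match TGAGTCA from -15. Its first start, 150919905 to 150920204 with the flanks, holds only 2 NFAT cores. The counts per gene do not show which start was used. Tnfrsf4 and Traf1 have 1 NFAT core each and none of the other motifs. The window of Tnfrsf4 ends at 156013744, before the GENCODE start of the gene at 156013843, and its first part overlaps the end of Sdf4. Traf3 holds the same 10 letters GGGGATTTCC from -10 and 4 EGR matches, and its log2 fold change was 0.02 (SE 0.74). The second start of Tnfrsf25, a gene with 0 reads, also held κB matches, 2 in number. In the windows of Tnfrsf18, Tnfrsf1b, Cd27 and Traf2 there was no κB, AP-1 or EGR match. What these motifs add to the RNA levels was not tested.

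Around these members, 86 genes of the pathway were followed in 5 lists, of which 61 could be tested. At an unadjusted p under 0.05, 5 of the 61 were higher in SKG (3.07% of all genes) and 2 were lower (2.38% of all genes), and edgeR called 0. The libraries did not overlap for 4 in each direction, where 6.77% of all genes were higher and 7.12% lower without overlap, so these 4 were near the background. The median log2 fold change over the 61 genes was 0.14, beside -0.02 over all genes tested.

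Among 18 ligands of the TNF superfamily, 8 could be tested, and 6 had 0 reads in all libraries. Tnfsf4, the gene of OX40 ligand, was read 526, 3021 and 1973 times by the BALB/c libraries but 8041, 4877 and 6545 times by those of SKG, at 46.0 ± 34.4 and 169 ± 38.6 CPM (SD, n = 3 each). Each SKG library was thus above each BALB/c library, the reverse of its receptor Tnfrsf4. Its log2 fold change was 1.88 (SE 0.63, adjusted p = 0.834 from edgeR and 0.268 from DESeq2 with shrunken fold changes), and it ranged from 1.43 without BALB/c replicate 1 to 2.56 without BALB/c replicate 2. Tnfsf8, which encodes CD30 ligand, was lower in SKG, where 8002, 10498 and 8491 reads stood against 18182, 15467 and 18586 for BALB/c. These are 423 ± 15.6 and 235 ± 35.7 CPM (SD, n = 3 each), a log2 fold change of -0.85 (SE 0.16, adjusted p = 0.617 from edgeR and 0.00779 from DESeq2 with shrunken fold changes). The ligand of Tnfrsf9, Tnfsf9, had few reads, with 45, 40 and 28 in BALB/c and 7, 192 and 237 in SKG. Among the ligands of the other members, Tnf, Tnfsf18 and Cd70 had 0 reads in all 6 libraries, Lta had 52 reads in BALB/c replicate 3, 2 in SKG replicate 2 and 0 elsewhere, and Tnfsf15 had at most 9 reads.

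Of 22 other receptors of the family, 10 could be tested and 0 had an unadjusted p under 0.05. The lowest p in each direction belonged to Tnfrsf14, the receptor HVEM, at 162 ± 2.43 against 121 ± 23.3 CPM for BALB/c and SKG (SD, n = 3 each), with non-overlapping libraries (log2 fold change -0.42, SE 0.20), and to Tnfrsf26, at 0.98 (SE 0.88) with overlapping libraries. The median of the 10 was 0.09.

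All 24 other TRAFs and TRAF-bound adaptors could be tested, and 2 had an unadjusted p under 0.05, both higher in SKG, where 3.07% of all genes lay. Rnf31, the catalytic subunit HOIP of the linear ubiquitin ligase complex, was at 32.8 ± 18.0 CPM in BALB/c and 97.8 ± 27.9 in SKG (SD, n = 3 each). Its log2 fold change was 1.58 (SE 0.52, adjusted p = 0.833 from edgeR). Traf4, with reads of 4517, 5444 and 6100 for BALB/c against 6756, 6686 and 7373 for SKG, had a log2 fold change of 0.47 (SE 0.18, adjusted p = 0.877 from edgeR). Traf6, which serves Toll-like and IL-1 receptors as well, had 0.80 (SE 0.36) and Traf5, the close relative of TRAF2 and TRAF3, -1.17 (SE 0.80), both with overlapping libraries. The value of Traf5 moved from -1.89 without SKG replicate 2 to -0.77 without BALB/c replicate 2.

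In the list of the alternative NF-κB arm, 5 of 5 genes could be tested. Relb, the transcription factor subunit this arm releases, was counted 5469, 2459 and 2784 times for BALB/c and 1459, 347 and 1116 times for SKG. All SKG libraries were lower, at 25.3 ± 14.5 against 86.8 ± 39.7 CPM (SD, n = 3 each). The log2 fold change was -1.78 (SE 0.60, adjusted p = 0.834 from edgeR) and -1.33 without BALB/c replicate 1. The kinase Chuk (IKKα) was at 0.18 (SE 0.26). In the canonical arm and its feedback, 14 of 17 genes could be tested. Cyld, a deubiquitinase that restrains TRAF signalling, was 2.20 times higher in SKG, with 91.9 ± 36.9 against 202 ± 17.8 CPM (SD, n = 3 each, adjusted p = 0.730 from edgeR) and non-overlapping libraries. Nfkbie, an NF-κB inhibitor gene, was at 29.7 ± 1.37 CPM in BALB/c and 14.1 ± 7.38 in SKG (SD, n = 3 each), with a log2 fold change of -1.08 (SE 0.61). Ikbkb, the gene of IKKβ, named because its unadjusted p was also under 0.05, had 0.70 (SE 0.26) with overlapping libraries. The medians of these lists were -0.02 and 0.25.

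**Figure D4:**
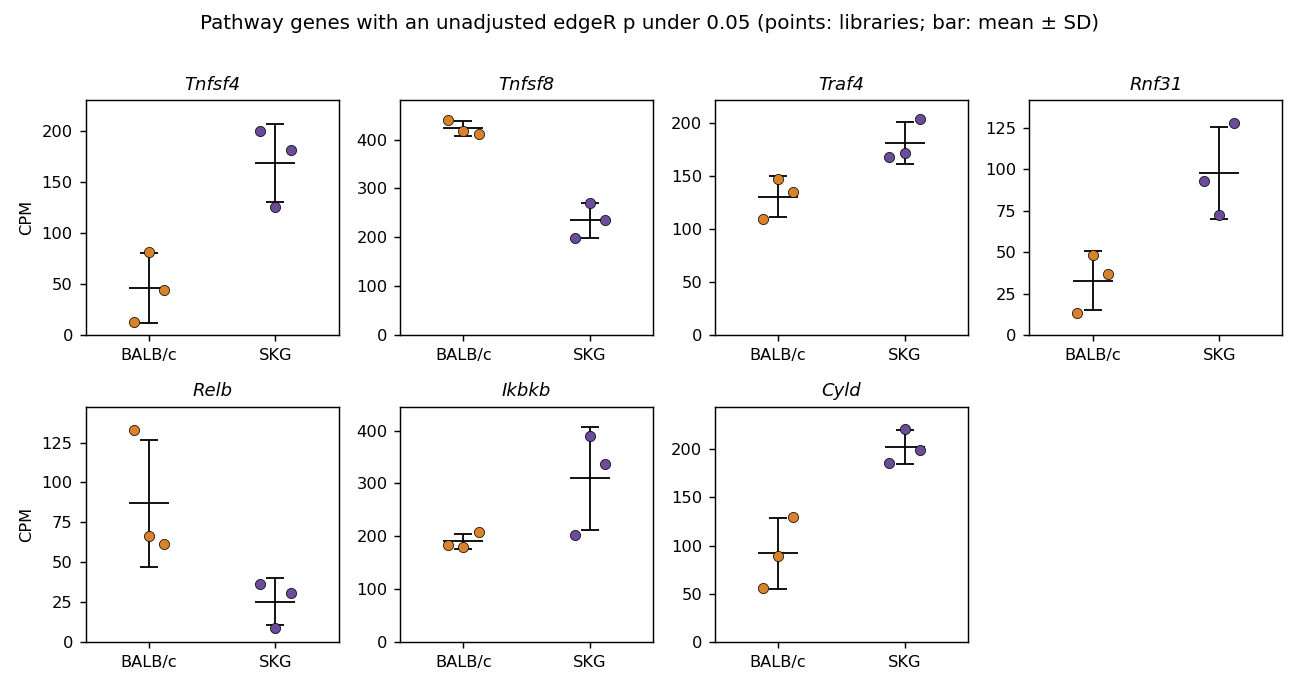
Level in CPM (vertical axes, one scale per gene) of the 7 pathway genes with an unadjusted edgeR p under 0.05, in BALB/c (orange) and SKG (purple) libraries. Points are libraries and bars the mean ± SD. Tnfsf8 and Relb are lower in SKG, the other 5 are higher, and only Ikbkb has libraries that overlap.

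Since OX40, 4-1BB and GITR also mark regulatory T cells, markers of other cells were read from the same libraries. Foxp3, which defines regulatory T cells, had 0 reads in all BALB/c libraries and 20, 0 and 0 in SKG. The summed level of 6 regulatory T cell markers, carried mostly by Ikzf2 and Izumo1r, was 589 to 665 CPM in BALB/c and 634 to 821 in SKG. Within this list, Il2ra and Ctla4 peaked in SKG replicate 3, at 1254 and 492 reads. Elsewhere Il2ra ranged from 1 to 434 reads and Ctla4 from 0 to 29. For both genes the libraries of the genotypes overlapped, and the sum hardly reflects them. Double-positive thymocyte markers (7) summed to 66.5 to 437 CPM in BALB/c and 71.1 to 221 in SKG, with the highest sum in BALB/c replicate 1. The sums of B cell markers (7) were 6.87 to 105 and 4.59 to 45.0 CPM, of myeloid markers (6) 4.36 to 64.8 and 6.13 to 146, of dendritic cell markers (5) 0 to 4.76 and 0.0772 to 7.47, and of thymic epithelial markers (6) 28.1 to 41.4 and 10.0 to 86.9. For NK cell and iNKT1 markers (6) they were 150 to 273 and 202 to 297, with Tbx21, Eomes and Ncr1 at 0 in all libraries, and for iNKT17 and gamma-delta T cell markers (5) 21.6 to 25.4 and 21.8 to 40.8. The NK cell and iNKT1 sum was almost all Il2rb, at 146 to 297 CPM. Likewise, the thymic epithelial sum was almost all Epcam, at 10.0 to 86.9 CPM, with Krt5 and Psmb11 at 0 in all libraries. Erythroid markers (6) summed to 69.7 CPM in BALB/c replicate 1 and to at most 1.57 in the other 5 libraries. None of these 9 sums separated the genotypes. BALB/c replicate 1 had the highest Tnfrsf9, Traf1 and Relb of all libraries as well as the highest double-positive, B cell and erythroid sums. Without it Tnfrsf9 was at -1.22 (SE 0.21), Traf1 at -2.19 (SE 2.14) and Relb at -1.33. For each of these genes this was the smallest difference with 1 library left out. Tnfrsf4, whose reads were highest in BALB/c replicate 2, stayed at -6.30. SKG replicate 3 had the highest regulatory T cell, myeloid, dendritic cell, NK cell and iNKT1, and thymic epithelial sums. It also had the highest Traf2, Traf4 and Rnf31 of all libraries, while Tnfsf4, Cyld and Ikbkb peaked in other SKG libraries. Without SKG replicate 3, Traf2 was at 0.34 (SE 0.22). A list of 11 genes for the stage 0 sort includes the gated-out Cd8a, Cd8b1 and Cd44 and shares Cd8a and Cd8b1 with the double-positive list. It summed to 9550 to 12800 CPM in BALB/c and 7370 to 8510 in SKG. Its largest part was Itm2a, at a mean of 5184 CPM in BALB/c and 4107 in SKG, with overlapping libraries. Egr1, Egr2 and Cd69 were each lower in all SKG libraries. Cd24a went the other way, at a mean of 25.1 CPM in BALB/c and 70.4 in SKG, with overlapping libraries. The other genes of the list overlapped as well. What other cells or these genes add to the differences of Tnfrsf9, Traf1, Relb, Traf2, Traf4 and Rnf31 was not tested.

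The 5 genes whose log2 CPM followed Tnfrsf9, the member with the lowest p, most closely over the 6 libraries were 9530085L11Rik, Rps3a3, Rer1, Bach2it1 and Gm5511, with Pearson correlations from 0.987 to 0.996. Rer1, a Golgi retrieval protein gene, had 7715, 6530 and 7768 reads for BALB/c against 5348, 5261 and 4844 for SKG. The others had at most 530 reads, and Bach2it1 had 57, 17 and 19 in BALB/c and 0 in all SKG libraries. With 6 points that share the split by genotype, 74 of 12304 genes had a correlation over 0.95.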

How the data were processed

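RNA of sorted stage 0 iNKT cells was sequenced in 50 nt single reads. The authors aligned them with HISAT2 2.1.0 to GRCm38 and counted reads on exons with featureCounts (Subread 1.4.4) and Ensembl annotation, unstranded. The deposited table holds raw counts per gene, neither normalised nor filtered. A second table, which holds the authors' own DESeq2 comparison (mean, log2 fold change, standard error, statistic and p-values), was not used. The methods and the sample labels name different amplification kits (SEQR and SMART-Seq v4), and which was used is not settled here.

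Counts of all 6 libraries entered 1 fit without covariates in R 4.3.3 with edgeR 4.0.16 (filterByExpr, TMM, quasi-likelihood F test, Benjamini-Hochberg over 12312 genes). Each SE was derived from the log2 fold change and its F statistic. The thresholds, an adjusted p of 0.1 and a 1.5-fold change, follow the study. Log2 CPM used a prior count of 2. Alternatives were DESeq2 1.42.0, limma 3.58.1 (voom), other normalisation factors and filters, replicate blocks and each library left out. The fits were also run on simulated data, where a pass was required only of edgeR at a dispersion far below that of these data. That check does not cover the noise seen here. Genes named are the 9 members, their direct ligands, Traf4, Traf5 and Traf6, the lowest p per direction in each pathway list, neighbours, and the 5 genes most like the member with the lowest p. Members, lists and rules were chosen with earlier results of these data known. Positions and exon lengths are from GENCODE M21 by symbol (46361 of 48397 symbols had 1 position), and promoter windows from RefSeq on GRCm38.p6. The number of replicates, 3 per genotype, and a coefficient of variation of 91.8% between libraries (common dispersion 0.842) limit precision.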

Additional observations from a re-analysis of the deposited data

How the results depend on the processing

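EdgeR called 0 genes and 0 of the 9 members, and both counts stayed at 0 with limma-voom, with either set of other normalisation factors and with each library left out (0 to 0). When no low-count filter was applied, 2 genes and 0 members were called by edgeR. DESeq2 called 370 genes without shrinkage and 231 with shrunken fold changes, and 2 members in each case, Tnfrsf4 and Tnfrsf9. The number of members with an unadjusted p under 0.05 was 2, also with each library left out (2 to 2), and fell to 1, Tnfrsf9, with the stricter filter on low counts, under which Tnfrsf4 was not tested. It was 3 with DESeq2, with or without shrinkage, where Traf2 was added, and 3 with limma-voom, where Traf1 was added. With the replicate block by title number, edgeR called 0 genes, and the same 2 members had an unadjusted p under 0.05. With the library-number replicate block, which takes BALB/c replicate 3 and SKG replicate 1 out of the comparison because they have no partner, it called 0 genes and 1 member, Tnfrsf9, had an unadjusted p under 0.05. Deviations from the group means correlated at -0.145 to -0.00962 between libraries of the same title number, none of which correlated best with its own number, and at -0.0384 and 0.00289 for the library numbers, so the numbers are not taken as pairs.

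Over the alternatives, 108 of 119 values of single members kept their direction and their side of the threshold, 4 were newly called (Tnfrsf4 and Tnfrsf9 with DESeq2) and 7 changed sign. As edgeR and limma-voom called no member under any setting, keeping the side of the threshold says little about stability. Traf3 went from 0.02 to -0.0050 with library size alone, -0.046 with the block by title number and -0.24 with the block by library number, and ranged from -0.35 to 0.57 with 1 library left out. Tnfrsf1b ranged from -0.078 to 2.25 in the same way. Neither was called in any of these fits, and the cause was not tested. Reads of 1 or 2 per SKG library limit what can be said of the size of the Tnfrsf4 difference.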
